A study of Mus musculus with 6 samples.

Results

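Guanylate-binding proteins (GBPs) and immunity-related GTPases of the IRGM type were examined in whole mammary tumours of mice dosed with vehicle or with TMP195. The members were given as 10 genes: Gbp2, Gbp3, Gbp5, Gbp6, Gbp7, Gbp8, Gbp9, Irgm1, Irgm2 and Igtp. A gene counted as measured where the array annotation gave it a probe set that named no other gene, and where several did, the one with the highest mean was used. By this rule 6 of the 10 were measured, Gbp3, Gbp5, Gbp7, Gbp8, Gbp9 and Irgm1, out of 19937 genes on the array. The other 4, Gbp2, Gbp6, Irgm2 and Igtp, were named only on probe sets that carry the name of another gene as well, so no value is given for any of them.

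Each tumour came from a different female FVBN mouse carrying the MMTV-PyMT transgene, whose MMTV promoter expresses polyoma middle T antigen in mammary epithelial cells. Mice were 75 to 90 days old when their tumour burden was assessed before dosing. The vehicle group (3 tumours) received DMSO and the TMP195 group (3 tumours) received TMP195, an inhibitor of class IIa histone deacetylases, at 50 mg/kg once a day by intraperitoneal injection. The descriptions of the study differ on the length of dosing, 5 days in one and 2 weeks in another. Whole tumour RNA was hybridised to Affymetrix arrays, so fewer cells of a type and less RNA per cell cannot be told apart. Values are log2 array intensity, and a difference is TMP195 minus vehicle on that scale. The number of arrays limits the precision.

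The tumours numbered 2 in both groups stood apart from the rest. Markers of skeletal muscle, 5 of 5 measured, were highest in vehicle tumour 2, with a mean of 8.54 against 4.53 to 5.29 in the other tumours. TMP195 tumour 2 was the highest of the 6 tumours in 25.4% of all genes and the lowest in 22.4%. Differences of the measured members are shown with and without these tumours. For other genes and lists such values are given in part only. The mean of 6 mammary tumour epithelium markers, among them Epcam, Krt8 and Krt18, lay between 10.6 and 10.8 in every tumour.

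GBPs and IRGs are GTPases that cells make when interferon reaches them. Interferon-gamma binds its receptor, the Janus kinases JAK1 and JAK2 pass the signal on, and target promoters carry gamma-activated sites (GAS). Interferon regulatory factors act through the interferon-stimulated response element (ISRE). GBPs coat vacuoles and bacteria inside infected cells and help to set off inflammasomes, and the IRGM proteins stay on host membranes, where they hold the other IRGs inactive. In tumours their transcripts are widely used as a sign that cells have been exposed to interferon.

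Promoters are shown for the members in which letters of both interferon elements were found. RefSeq windows on GRCm38.p6, from 250 bases before to 50 after the annotated start, were found for 7 of the 10 members: Gbp2, Gbp3 (with 2 starts), Gbp5, Gbp7, Irgm1, Irgm2 and Igtp. Both strands were searched for the ISRE core (GAAA, then 2 bases of any kind, then GAAA) and for the GAS letters TTCNNNGAA. The ISRE core was present in a window of 7 of these 7 members, against 3.99% of the 27025 genes in the table. GAS letters were present in 4 of 7, against 9.55% of genes, and both together in the same 4, against 0.54% of genes. The 4 with both were Gbp5, Gbp7, Igtp and Irgm2. The 250 bases before their starts, all on the plus strand, follow with the matches to either motif in capitals.
Gbp5, chr3:142496684-142496933: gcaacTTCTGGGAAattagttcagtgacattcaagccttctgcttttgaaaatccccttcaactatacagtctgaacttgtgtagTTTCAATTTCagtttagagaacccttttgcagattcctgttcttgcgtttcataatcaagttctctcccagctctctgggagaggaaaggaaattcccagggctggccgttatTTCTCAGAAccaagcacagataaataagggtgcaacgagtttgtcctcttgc
Gbp7, chr3:142530086-142530335: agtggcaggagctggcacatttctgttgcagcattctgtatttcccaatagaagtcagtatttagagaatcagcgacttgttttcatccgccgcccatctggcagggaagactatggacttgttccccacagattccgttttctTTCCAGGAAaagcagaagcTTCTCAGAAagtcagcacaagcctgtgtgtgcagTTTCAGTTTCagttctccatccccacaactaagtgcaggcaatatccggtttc
Igtp, chr11:58199306-58199555: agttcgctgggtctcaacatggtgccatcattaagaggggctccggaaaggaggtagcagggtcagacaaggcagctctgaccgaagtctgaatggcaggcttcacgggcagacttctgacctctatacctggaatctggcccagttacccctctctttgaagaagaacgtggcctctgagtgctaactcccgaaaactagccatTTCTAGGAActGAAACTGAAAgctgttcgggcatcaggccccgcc
Irgm2, chr11:58214727-58214976: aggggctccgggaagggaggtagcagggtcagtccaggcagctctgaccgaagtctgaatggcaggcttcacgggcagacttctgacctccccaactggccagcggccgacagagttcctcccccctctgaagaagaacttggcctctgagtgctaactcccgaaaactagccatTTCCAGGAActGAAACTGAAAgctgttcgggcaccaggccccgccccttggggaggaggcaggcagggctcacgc

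Igtp and Irgm2, both on chromosome 11, carry the same arrangement, a GAS followed after 2 bases by an ISRE core. Aligned without gaps at the GAS, their promoters were identical at 92 of 100 bases, from 60 bases before the GAS to 40 bases from its first base. The GAS began 45 bases before the start in Igtp and 75 bases before it in Irgm2. The arrangement is not particular to these members: Tgtp1 and Tgtp2, IRG genes outside the members and also on chromosome 11, carry it too. In Gbp7 the ISRE core began 53 bases before the start and the GAS matches began 106 and 87 bases before it. Gbp5 had its ISRE core farther out, at 165 bases, and GAS matches at 245 and 52 bases. Gbp3 had overlapping ISRE cores that began 45 and 39 bases before its first start, and none at its second. Irgm1, on the minus strand, had overlapping cores that began 30 and 24 bases before the start. No GAS match overlapped an ISRE core in these windows. A match describes letters only and shows no binding.

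**Figure D1:**
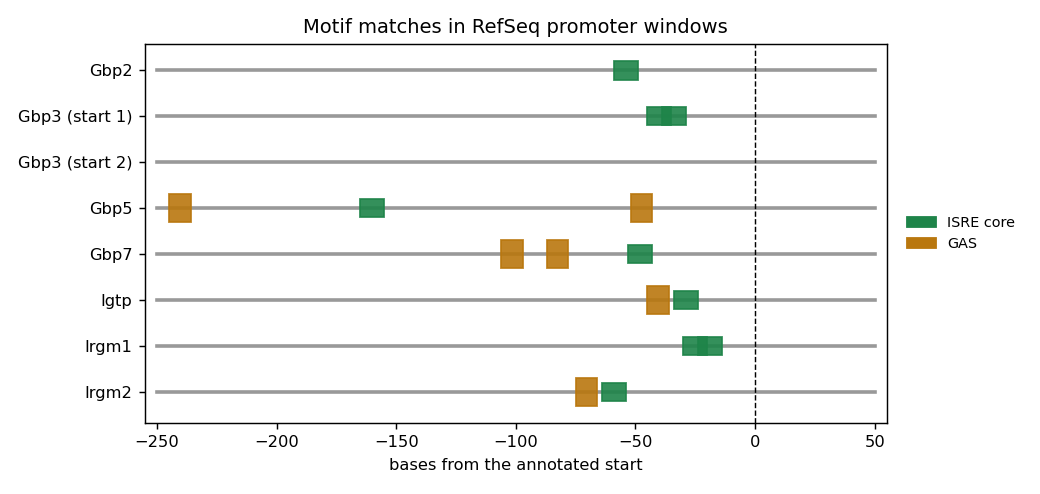
Positions of ISRE core matches (green) and GAS matches (orange) in the RefSeq promoter windows of the 7 members that have one, in bases from the annotated start (dashed line), with 2 windows for Gbp3. Matches in the 7 members fall before the start, and Igtp and Irgm2 show the same neighbouring pair at different distances.

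None of the 6 measured members separated the dosing groups, and a single tumour held the lowest value of each. In vehicle tumour 2 all 6 measured members were at their lowest of the 6 tumours, where 18.7% of all genes were lowest in that tumour. In TMP195 tumour 2, 3 of the 6, Gbp3, Gbp7 and Gbp8, were at their highest, against 25.4% of all genes.

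Gbp3, Gbp5 and Gbp7 belong to a GBP cluster on chromosome 3. Gbp3 had log2 intensities of 7.05, 6.11 and 6.85 in vehicle tumours 1 to 3 and of 7.13, 7.51 and 6.65 in TMP195 tumours 1 to 3. Vehicle tumour 2 was low and TMP195 tumour 2 high, and the groups overlapped, since TMP195 tumour 3 lay below vehicle tumours 1 and 3. Gbp3 spanned 1.39 from its lowest to its highest tumour, or 2.63-fold, the widest span of the 6 members and wider than that of 96.8% of the array's genes ranked by span. Vehicle tumours averaged 6.67 ± 0.49 (SD, n = 3) and TMP195 tumours 7.10 ± 0.43 (SD, n = 3). The difference of 0.42 ± 0.30 (SE) had a 95% interval of -0.29 to 1.13 in limma (adjusted p = 1.0). Without vehicle tumour 2 the Gbp3 difference was 0.14, and without TMP195 tumour 2 it was 0.22. Without TMP195 tumour 3 it was 0.65 and the groups no longer overlapped, as in 15.8% of all genes in that comparison.

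Gbp7, a GBP that takes part in oxidative killing of bacteria in macrophages, had values of 8.19, 7.68 and 7.99 with vehicle and of 7.90, 8.41 and 7.88 with TMP195. TMP195 tumours 1 and 3 lay inside the vehicle range and TMP195 tumour 2 alone above it. The means were 7.95 ± 0.26 (SD, n = 3) and 8.07 ± 0.30 (SD, n = 3), a difference of 0.11 ± 0.19 (SE) with an interval of -0.34 to 0.57. Without TMP195 tumour 2 the Gbp7 difference turned to -0.060, and without vehicle tumour 2 to -0.025.

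Gbp5, which promotes assembly of the NLRP3 inflammasome, was dim, at percentile 16.1 of mean intensity. Its values were 3.21, 2.55 and 3.06 under vehicle and 2.82, 2.97 and 3.01 under TMP195. The TMP195 tumours lay close together inside the vehicle range, whose lower end was vehicle tumour 2. The means were 2.94 ± 0.35 (SD, n = 3) and 2.93 ± 0.098 (SD, n = 3), with a difference of -0.0063 and an interval of -0.43 to 0.41. Median centring of the arrays turned this difference to 0.0089. Without vehicle tumour 2 the TMP195 tumours lay below both remaining vehicle tumours, with a difference of -0.20 and an interval of -0.48 to 0.073. In that comparison of 2 tumours against 3, the groups did not overlap in 14.0% of all genes.

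**Figure D2:**
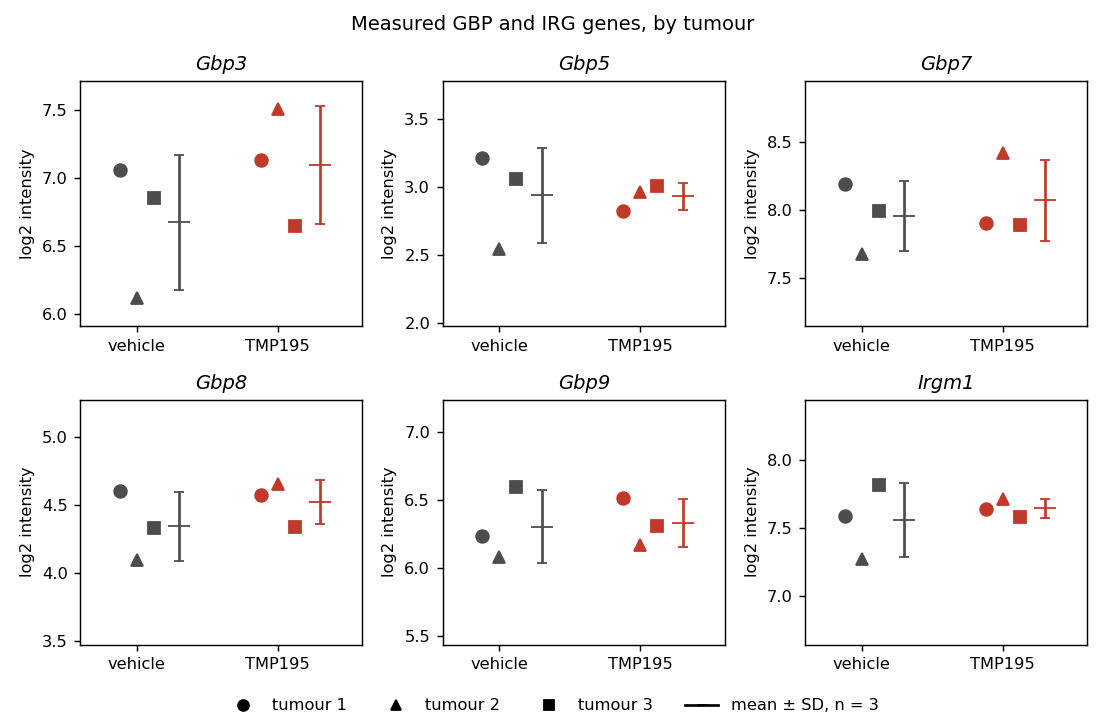
Log2 array intensity of the 6 measured members in each tumour, with circles, triangles and squares for tumours 1, 2 and 3, and bars for the mean ± SD of 3 tumours; each panel spans the same height on the log2 axis. The triangle of the vehicle group is the lowest point in every panel, and the TMP195 points overlap the vehicle points in every panel.

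Gbp8 and Gbp9 belong to a second GBP cluster, on another chromosome, whose members resemble each other closely. Gbp8 had values of 4.61, 4.10 and 4.33 with vehicle and of 4.57, 4.66 and 4.34 with TMP195. TMP195 tumour 2 alone exceeded vehicle tumour 1, and the groups overlapped. The Gbp8 difference was 0.18 ± 0.15 (SE), with an interval of -0.19 to 0.54. It was 0.053 without vehicle tumour 2 and 0.11 without TMP195 tumour 2. Without vehicle tumour 1 it was 0.31 and the groups did not overlap, as in 18.5% of all genes there. Gbp9 had values of 6.24, 6.08 and 6.60 under vehicle and of 6.51, 6.16 and 6.31 under TMP195. TMP195 tumour 2 was its second lowest and vehicle tumour 3 its highest, and the groups overlapped. The Gbp9 means were 6.30 ± 0.27 (SD, n = 3) and 6.33 ± 0.18 (SD, n = 3), a difference of 0.024 with an interval of -0.36 to 0.40. Its sign turned without vehicle tumour 1 (-0.0093), vehicle tumour 2 (-0.089) or TMP195 tumour 1 (-0.068). How far probes of either gene also take up transcripts of the neighbouring GBPs was not tested.

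Irgm1, the member of the IRGM group with a probe set of its own, restrains other IRGs on host membranes and is needed for control of intracellular infection. Irgm1 read 7.59, 7.27 and 7.81 with vehicle and 7.64, 7.71 and 7.58 with TMP195. Vehicle tumours 2 and 3 were the ends of its range and the TMP195 tumours lay between them. The means were 7.56 ± 0.27 (SD, n = 3) and 7.64 ± 0.069 (SD, n = 3), a difference of 0.086 ± 0.15 (SE) with an interval of -0.26 to 0.43. Without vehicle tumour 2 the Irgm1 difference was -0.056.

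Across the 6 measured members the differences ran from -0.0063 to 0.42, with a median of 0.10, where the median over all genes was -0.0014. The mean was higher under TMP195 in 5 of the 6 members, against 49.5% of all genes, and lower in 1. No member passed an adjusted p of 0.05 in limma, nor did any gene on the array (0.0% called), and no member had an unadjusted p under 0.05, against 502 genes, or 2.52%. The smallest unadjusted p among them was 0.20 in limma, for Gbp3. The groups overlapped in 6 of 6 members, where 6.68% of all genes showed no overlap. The interval of each difference included 0, and its half-width ran from 0.34 to 0.71 on the log2 scale, which is the precision these 6 arrays allow.

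Vehicle tumour 2 was the lowest tumour in all 6 members, so leaving it out could only lower each difference. TMP195 tumour 2 was the highest in Gbp3, Gbp7 and Gbp8, so the same holds there when it is left out. The direction of these shifts is therefore no separate result. Leaving out vehicle tumour 2 left 2 of 6 members higher under TMP195, Gbp3 and Gbp8, and the median turned to -0.040. Without TMP195 tumour 2 it was 4 of 6, with a median of 0.078. Without both, an alternative added once values had been seen, 0 of 6 were higher and the median was -0.077. The differences were then -0.063 for Gbp3, -0.22 for Gbp5, -0.20 for Gbp7, -0.013 for Gbp8, -0.0080 for Gbp9 and -0.091 for Irgm1. Of these, Gbp5 and Gbp7 lay lower in both TMP195 tumours than in both vehicle tumours, as 28.8% of all genes did not overlap in that comparison of 2 against 2. No member reached an unadjusted p under 0.05 in limma in any of these fits.

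**Figure D3:**
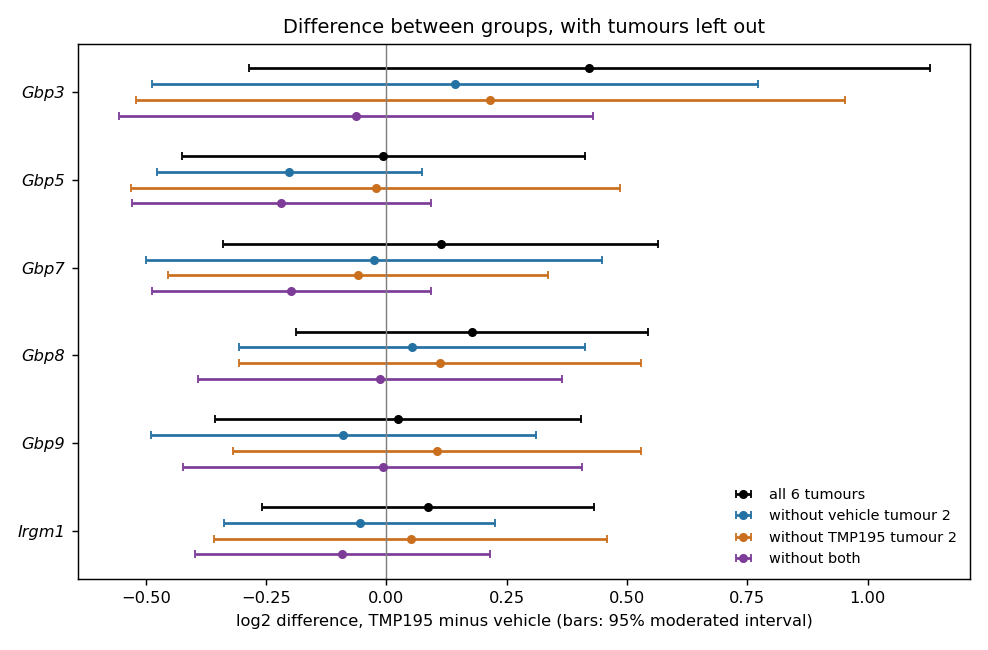
Difference between the groups (TMP195 minus vehicle, log2) for the 6 measured members, with 95% moderated limma intervals, in all 6 tumours (black), without vehicle tumour 2 (blue), without TMP195 tumour 2 (orange) and without both (purple). Every interval includes 0, and the points without both tumours lie below 0 in 6 of 6 members. Vehicle tumour 2 was the lowest tumour in each member, so leaving it out could only lower the difference.

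The low values of vehicle tumour 2 were not of equal size. It lay 0.53 below the next lowest tumour in Gbp3, 0.30 in Irgm1, 0.27 in Gbp5, 0.24 in Gbp8, 0.21 in Gbp7 and 0.088 in Gbp9. Averaged over the 6 members it was 5.63, against 5.96 to 6.24 in the other 5 tumours. All 6 members were lowest in this tumour also after median centring and after cyclic loess, where 20.0% and 21.1% of all genes were. Skeletal muscle markers averaged 8.54 in the same tumour. The 6 endothelial markers averaged 6.64 there and 6.86 to 7.01 elsewhere, and 5 of them, Pecam1, Cdh5, Kdr, Tie1 and Emcn, were lowest in it. Macrophage markers averaged 7.72 there, within the 7.50 to 7.96 of the other tumours, and 0 of 8 were lowest in it. Between the groups, 8 of 8 had a lower mean under TMP195, with a median difference of -0.13. The list averaged 7.72 to 7.96 in the vehicle tumours and 7.50 to 7.71 in the TMP195 tumours. The groups overlapped in each single marker, and 1, Mertk, had an unadjusted p under 0.05 in limma, against 2.52% of all genes. Of the 8, 6 were lowest in TMP195 tumour 3 and 4 highest in TMP195 tumour 2. Adipocyte markers were lower in 5 of 5 (median -1.01), 4 of them lowest in TMP195 tumour 2, and skeletal muscle markers in 5 of 5 (median -0.94). The skeletal muscle difference rested on vehicle tumour 2. That list averaged 4.62 and 4.53 in vehicle tumours 1 and 3, against 4.64, 4.69 and 5.29 in TMP195 tumours 1 to 3. T cell (4.61), NK and cytotoxic (3.35) and dendritic cell (4.49) markers had their highest averages in TMP195 tumour 2, where the members averaged 6.24. T cell markers averaged 4.16 in vehicle tumour 2 and 4.15 in TMP195 tumour 1, where the members averaged 5.63 and 6.10. The part of these cell types in the GTPase values was not tested.

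The rest of the GTPase family was read from 10 further genes with a probe set of their own. Of these, 7 were higher under TMP195 and 3 lower, with a median difference of 0.13; 0 passed in limma, at an adjusted p of 0.05 or an unadjusted p of 0.05, and 0 separated the groups. The median was -0.012 without vehicle tumour 2 and 0.051 without TMP195 tumour 2. Vehicle tumour 2 was the lowest of the 6 tumours in 5 of the 10, namely Iigp1, Gm4951, Gm12250, Gbp2b and Mx2.

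Iigp1, the effector GTPase Irga6 that destroys parasite vacuoles, had values of 6.32, 5.34 and 6.94 under vehicle and of 6.41, 6.76 and 6.07 under TMP195. Vehicle tumours 2 and 3 were the lowest and the highest, so the vehicle group enclosed the TMP195 group, and the difference was 0.21 ± 0.39 (SE), or -0.21 without vehicle tumour 2. Gm12250, whose synonym is Irgb10, is a GTPase that breaks bacterial membranes. Its values were 4.78, 4.55 and 5.10 under vehicle and 4.99, 5.16 and 4.94 under TMP195. The groups overlapped in Gm12250, with a difference of 0.22 ± 0.15 (SE), or 0.089 without vehicle tumour 2 and 0.024 without both tumours numbered 2.

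Gm4951, another IRG of the Iigp1 group, ranged from 4.44 in vehicle tumour 2 to 6.02 in vehicle tumour 3, and was 5.39 in vehicle tumour 1 and 5.13 to 5.64 under TMP195. The mean difference in Gm4951 was 0.058 ± 0.38 (SE), or -0.36 without vehicle tumour 2. Gbp2b, the mouse gene first called Gbp1, was 4.10, 3.86 and 4.14 under vehicle and 3.99, 4.61 and 3.98 under TMP195. TMP195 tumour 2 was high and the other TMP195 tumours lay inside the vehicle range. The Gbp2b difference was 0.16 ± 0.19 (SE), or -0.047 without TMP195 tumour 2.

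The antiviral Mx genes differed from each other. Mx2 had values of 5.37, 4.18 and 5.42 under vehicle and of 5.44, 5.71 and 4.92 under TMP195, with vehicle tumour 2 low as in the members. The Mx2 difference of 0.37 ± 0.36 (SE) became -0.037 without that tumour. Mx1 was 4.28, 4.02 and 4.01 under vehicle and 3.73, 4.63 and 3.83 under TMP195. Without TMP195 tumour 2, Mx1 was lower in both remaining TMP195 tumours than in any vehicle tumour, with a difference of -0.32 ± 0.12 (SE), an unadjusted p of 0.038 and an adjusted p of 1.0 in limma. In that comparison of 3 tumours against 2, 15.2% of all genes did not overlap and 578 had an unadjusted p under 0.05.

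Gbp4, Gbp11, Irgq and Irgc1 did not have vehicle tumour 2 as their lowest. Gbp4, a neighbour of Gbp9, was highest in vehicle tumour 1 at 5.46 and lay between 4.97 and 5.13 in the other tumours. Gbp11 was dim, between 2.24 and 2.81. Irgq, a divergent relative, lay between 6.53 and 6.82, and Irgc1, a relative best known from testis, between 3.32 and 4.17. The differences of these 4 genes lay between -0.044 (Gbp4) and 0.14 (Gbp11).

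**Figure D4:**
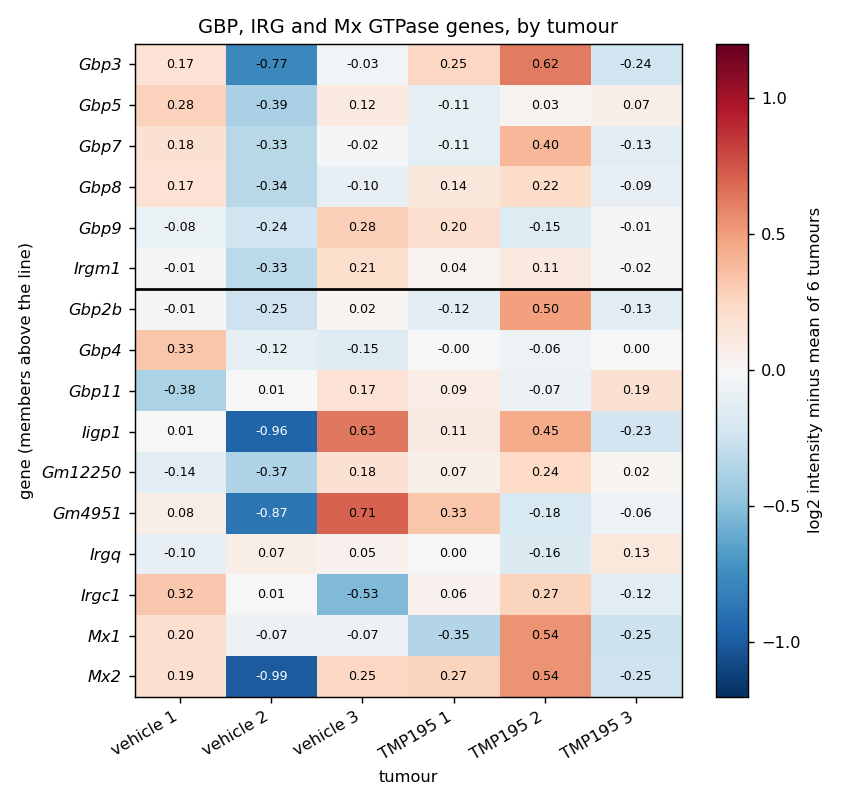
Log2 intensity of the 6 measured members (above the line) and the 10 other GTPase genes (below it), each minus its mean over the 6 tumours, by tumour. Vehicle tumour 2 is the most negative column for all 6 members and for Iigp1, Gm4951, Gm12250, Gbp2b and Mx2, and Mx2 has the lowest single value, -0.99.

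The signals that induce the GTPases were compared next. Ifng, which encodes interferon-gamma, was dim (percentile 28.6) and had values of 4.02, 3.95 and 3.64 under vehicle and of 4.01, 4.01 and 3.79 under TMP195. The groups overlapped, vehicle tumour 2 was not low, and the difference was 0.065 ± 0.13 (SE). Of the 10 interferon and interleukin ligands, 7 were higher and 3 lower. The groups separated in 1, where they did in 6.68% of all genes: Il27, an interleukin of the interleukin-12 family. Il27 was 5.39, 5.39 and 5.23 under vehicle and 5.41, 5.51 and 5.61 under TMP195, a difference of 0.17 ± 0.099 (SE; unadjusted p of 0.12, adjusted p of 1.0 in limma). Il18, an inducer of interferon-gamma, differed by -0.26 ± 0.16 (SE) and Ifnb1, which encodes interferon-beta, by -0.29 ± 0.19. Il12b, a subunit of interleukin-12, differed by 0.17 ± 0.14. The groups overlapped in each of these. Without TMP195 tumour 2 the Il18 difference was -0.39 ± 0.15 (SE, unadjusted p of 0.040 in limma). The groups then did not overlap in Il18, as in 15.2% of all genes.

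Ifngr1 lay between 8.49 and 8.74 and Ifngr2, which encodes the other chain of the interferon-gamma receptor, between 9.56 and 9.78. Jak1 and Jak2 differed by 0.11 ± 0.12 (SE) and 0.082 ± 0.095 (SE). Among the 11 genes of this list 6 were higher and 5 lower, with a median of 0.056, and none separated the groups. The largest difference in size was that of Il18r1, a chain of the interleukin-18 receptor, at -0.53 ± 0.34 (SE), followed by Il18rap at -0.20 ± 0.19. Without TMP195 tumour 2 the Il18r1 difference was -0.90 ± 0.23 (SE, unadjusted p of 0.0072 in limma). The groups then did not overlap, as in 15.2% of all genes. In that fit 578 genes had an unadjusted p under 0.05 and the smallest adjusted p of any gene was 0.17 in limma. Il12rb1 differed by 0.10 ± 0.095. Jak1 was lowest in vehicle tumour 2, at 10.1 against 10.3 to 10.5 in the others, and Ifngr2 was highest there.

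Transcription factors of the pathway were represented by 12 measured genes, of which 7 were higher and 5 lower with a median of 0.026. Irf1, which binds the ISRE of GBP genes, was 7.45, 7.54 and 7.61 under vehicle and 7.61, 7.74 and 7.52 under TMP195. It was not low in vehicle tumour 2, and its difference was 0.087 ± 0.098 (SE). Irf2, a competitor of Irf1 on the same element, read 7.16 in vehicle tumour 2, below the 7.72 to 7.96 of the others. The Irf2 difference was 0.25 ± 0.18 (SE), or 0.045 without that tumour. Irf9, an interferon regulatory factor of the type I response, differed by 0.17 ± 0.12 (SE) and Nlrc5, the activator of class I antigen genes, by -0.066 ± 0.095 (SE). As a list the factors averaged 6.74 in vehicle tumour 2 and 6.88 to 7.08 elsewhere.

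Of the 8 inhibitors of the pathway, 7 were higher and 1, Irf2bp2, lower. Socs1, which blocks JAK1 and JAK2, was between 3.83 and 4.06 and differed by 0.091 ± 0.091 (SE). Socs3, another inhibitor of JAK kinases, read 7.74 in TMP195 tumour 2, above the 6.28 to 6.58 of the others. Rnf31 and Irf2bp2 differed by 0.089 ± 0.092 and -0.23 ± 0.16 (SE). None of these separated the groups or passed in limma.

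Other targets of interferon were set beside the GTPases. In the 23 measured interferon-gamma targets, 14 were higher and 9 lower, with a median of 0.033. Cxcl10, a chemokine for T cells, was 4.24, 3.75 and 3.70 under vehicle and 4.13, 5.09 and 4.22 under TMP195, a difference of 0.58 ± 0.28 (SE; unadjusted p of 0.074 in limma). TMP195 tumour 2 was high, and vehicle tumour 1 lay above both other TMP195 tumours. Without TMP195 tumour 2 the Cxcl10 difference was 0.28. Cxcl9, a chemokine of the same receptor, differed by 0.24 ± 0.20, or by 0.042 without vehicle tumour 2. Icam1, an adhesion molecule, differed by -0.14 ± 0.11 and Ido1, which breaks down tryptophan, by -0.40 ± 0.27. In this list 10 genes were lowest in vehicle tumour 2 and 13 highest in TMP195 tumour 2.

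Of the pathway lists, the type I interferon targets had the widest span across the tumours. Averaged over the list they read 6.91, 6.07 and 6.86 with vehicle and 6.75, 7.10 and 6.45 with TMP195, a span of 1.03 against 0.61 for the members. Of the 18 measured, 14 were lowest in vehicle tumour 2 and 13 highest in TMP195 tumour 2. By dosing group 15 were higher and 3 lower, with a median of 0.16 that turned to -0.086 without vehicle tumour 2 and was 0.024 without TMP195 tumour 2. Ifit1, which binds viral RNA, was 6.53, 5.03 and 6.47 under vehicle and 6.37, 6.88 and 6.0 under TMP195. The RNA sensors Ddx58 and Dhx58 differed by 0.29 ± 0.22 and 0.26 ± 0.24 (SE), and Cmpk2, a nucleotide kinase, by 0.26 ± 0.25. Without vehicle tumour 2 the differences of Ddx58, Dhx58 and Cmpk2 were 0.078, 0.032 and -0.023. No member of this list or of the interferon-gamma list passed in limma, at an adjusted p or at an unadjusted p of 0.05, and none separated the groups.

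The machinery with which the GTPases work was read from a further list. GBPs and effector IRGs such as Iigp1 are directed to vacuoles by the conjugation system of autophagy. The 13 genes of that list averaged between 8.32 and 8.40 in each tumour. The list was lowest in vehicle tumour 1, and 2 of its genes were lowest in vehicle tumour 2. Of the 13, 2 separated the groups, where 6.68% of all genes did. Traf6, a ubiquitin ligase recruited to vacuoles, was higher by 0.17 ± 0.089 (SE, unadjusted p of 0.10 in limma). Map1lc3a, an autophagy modifier, went in the other direction at -0.17 ± 0.098 (SE, unadjusted p of 0.14 in limma). Atg7, the activating enzyme, and Trim21, an antibody receptor and ubiquitin ligase, differed by -0.088 ± 0.086 and 0.11 ± 0.12.

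Downstream of GBPs lie the cytosolic sensors and inflammasomes, with 10 measured genes, 6 higher and 4 lower. Casp1, the inflammasome protease, was 8.51, 8.19 and 8.26 under vehicle and 8.30, 9.29 and 8.51 under TMP195. TMP195 tumour 2 was high and the other values overlapped. The Casp1 difference was 0.38 ± 0.25 (SE), or 0.086 without that tumour. Naip2 and Nlrc4, sensors of bacterial secretion and flagella, differed by 0.26 ± 0.16 and 0.24 ± 0.15 (SE). Il1b, the cytokine that these complexes release, was the single pathway gene with an unadjusted p under 0.05 (0.020; adjusted p of 1.0 in limma), with a difference of 0.80 ± 0.27 (SE). It was 5.73, 4.94 and 5.63 under vehicle and 5.79, 6.39 and 6.53 under TMP195. The groups did not overlap, as in 6.68% of all genes, with TMP195 tumour 1 close to vehicle tumour 1. Over all genes, 2.52% had an unadjusted p under 0.05 in limma. Leaving out vehicle tumour 2 gave an Il1b difference of 0.56 (unadjusted p of 0.055 in limma). It was 0.73 when TMP195 tumour 2 was dropped (unadjusted p of 0.057 in limma) and 0.66 when TMP195 tumour 3 was (unadjusted p of 0.067 in limma). The Il1b difference was 1.03 without TMP195 tumour 1, 0.95 without vehicle tumour 1 and 0.90 without vehicle tumour 3. Their unadjusted p in limma was 0.0062, 0.020 and 0.027. Without both tumours numbered 2 it was 0.48. Groups that do not overlap in all 6 tumours cannot overlap with a tumour left out, so these fits do not test the separation.

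Over all 9 pathway lists, 115 genes outside the members were measured. Of these 77 were higher under TMP195, where 49.5% of all genes were. The medians of the 9 lists ran from 0.014 to 0.16 in all tumours, and from -0.086 to 0.033 without vehicle tumour 2. Of the 115, 4 (3.48%) separated the groups, against 6.68% of all genes, and 0 passed an adjusted p of 0.05 in limma. The 4 were Il27, Traf6 and Il1b, higher, and Map1lc3a, lower. Vehicle tumour 2 was the lowest tumour in 49 of the 115 (42.6%, against 18.7% of all genes) and TMP195 tumour 2 the highest in 51 (44.3%, against 25.4%). These shares are descriptions, since genes of a pathway vary together and are not independent.

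**Figure D5:**
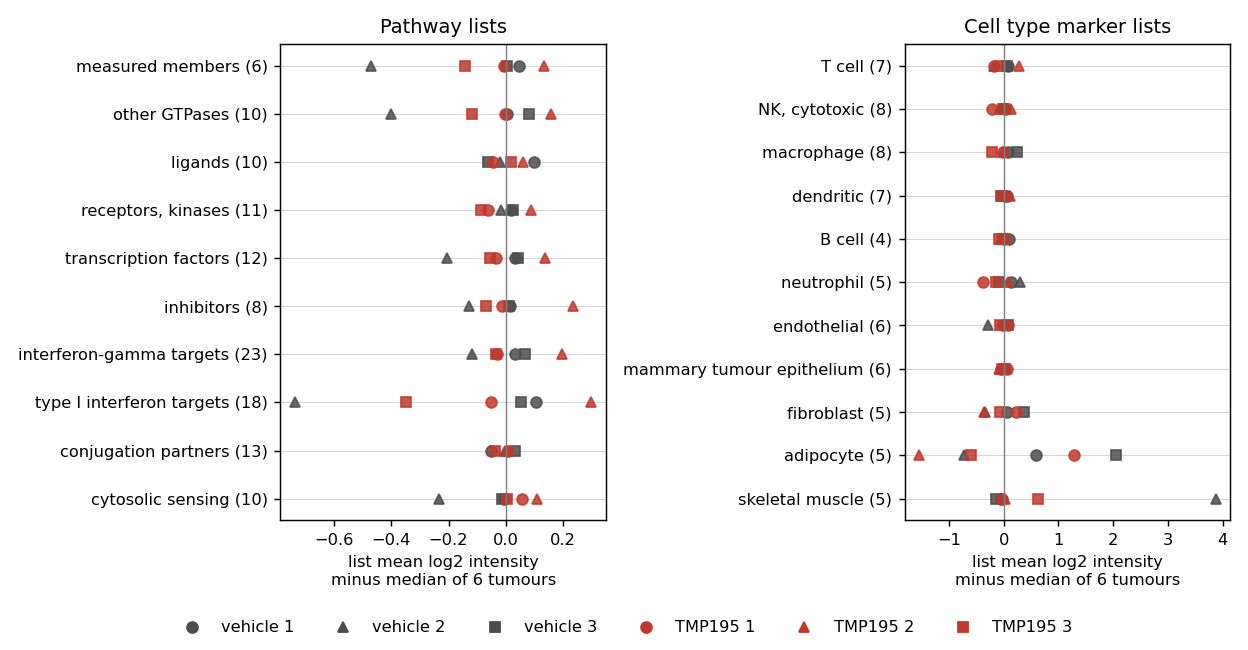
Mean log2 intensity of each pathway list (left) and cell type marker list (right), minus the median of the 6 tumours, with the number of genes in brackets; the 2 panels have different scales. Vehicle tumour 2 (grey triangle) is lowest for 7 of the 10 pathway lists, the measured members among them, and highest for skeletal muscle, while TMP195 tumour 2 (red triangle) is highest for 8 of the 10 pathway lists.

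The genes whose course over the 6 tumours came nearest to the mean of the 6 measured members were not GTPases. Likeness was the root mean square difference over the 6 tumours between values centred on their own mean, and it was computed for 13951 genes above the 30th percentile of mean intensity. The member mean lay 0.40 below its own average in vehicle tumour 2 and 0.21 above it in TMP195 tumour 2. The 8 nearest were Svil, which encodes the actin-binding protein supervillin (0.027), the lipid flippase gene Atp8a1 (0.028), Klhdc8b (0.032), Zmym5 (0.036), the cadherin gene Cdh11 (0.041), Cd93, a receptor of endothelial and myeloid cells (0.042), the histone acetyltransferase gene Kat6b (0.046) and Irak3, an inhibitor of Toll-like receptor signalling (0.046). The median over the 13951 genes was 0.24. Among the 8, 0 were on the pathway lists, which held only 98 genes above the intensity cut. Values were not scaled, so a gene of like course but wider swings counted as farther. Single members lay from 0.086 (Gbp8) to 0.25 (Gbp3) from their own mean. They cannot be compared with the 8 genes, which were picked as the smallest of 13951 such distances. Among the other GTPases Gm12250 (0.12) and Gbp2b (0.17) came nearest.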

How the data were processed

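Expression was measured on Affymetrix arrays in 6 whole tumours, 3 per dosing group, assigned by their titles. The deposited values are array intensity per probe set, summarised by the authors with Affymetrix Power Tools by RMA, per the submitters' processing notes, with versions and filters not given in the sources used here. No scale is stated, and a linear one was assumed because array maxima ran from 8137 to 8873; whether values were centred is unknown, and column medians ran from 44.8 to 46.4. RMA makes array distributions alike, so a shift of most genes would not be visible. Log2 was taken without a pseudocount. Of 27359 probe sets, 21784 had 1 gene symbol in the platform annotation, 1620 several and 3955 none; probe sets with several named no gene. The probe set with the highest mean stood for a gene, giving 19937 genes, and no gene was left out for low intensity. Symbols were looked up in RefSeq (GRCm38.p6): 21693 of the probe sets with 1 gene symbol had a matching Entrez ID, and 0 symbols changed. Irgb10 was matched as Gm12250 through its synonym.

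Groups were compared by two-sided limma (version 3.58.1, R 4.3.3; lmFit, then eBayes) without covariates. P-values were Benjamini-Hochberg adjusted across 19937 genes, and eBayes estimated 2.93 prior degrees of freedom against 4 residual. Nothing in the labels says that processing differed between tumours; p-values measure the spread between mice. Alternatives tried were a block on replicate number, another prior, 2 scalings, a filter on dim genes, array weights, other probe set rules and single tumours left out. The fit was tested on simulated data. Lists are described by counts and medians beside those of all genes. The members and lists were chosen with earlier results of these data known. Named were all measured members and other GTPases, Ifng, Ifngr1, Ifngr2, Jak1, Jak2, Irf1, up to 4 genes per other list by unadjusted p, and the 8 genes most like the member mean. Genes named as the lowest or highest in a tumour were chosen after their values were seen. Of the cell type marker lists, markers of NK and cytotoxic cells averaged 3.00 to 3.35, dendritic cells 4.33 to 4.49, B cells 3.19 to 3.38, neutrophils 3.80 to 4.46, fibroblasts 9.35 to 10.1 and adipocytes 4.31 to 7.90 over the tumours. Plots were drawn with matplotlib 3.10.9 in Python 3.11.15, with pandas 2.3.3 and numpy 2.4.6.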

Additional observations from a re-analysis of the deposited data

How the results depend on the processing

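No measured member passed an adjusted p of 0.05 under any of the alternatives, and none had an unadjusted p under 0.05. Over all genes, limma called 0 at an adjusted p of 0.05 or 0.10 and 502 at an unadjusted p of 0.05. The member median ran from -0.077 to 0.18, and it was -0.038 with array weights. Array weights turned Gbp7 to -0.022, Gbp9 to -0.067 and Irgm1 to -0.055, and median centring turned Gbp5 to 0.0089. With single tumours left out, Gbp5 ran from -0.20 to 0.13, Gbp7 from -0.060 to 0.23, Gbp9 from -0.089 to 0.17 and Irgm1 from -0.056 to 0.21. An alternative chosen after seeing the data left out both tumours 2, and its differences were -0.063 for Gbp3, -0.20 for Gbp7, -0.013 for Gbp8, -0.0080 for Gbp9 and -0.091 for Irgm1. The cause of these turns was not tested. Of the 115 pathway genes, 4 separated the groups in all tumours, 8 to 18 with a tumour left out (6.96% to 15.7%, against 14.0% to 18.5% of all genes) and 35 without both tumours 2 (30.4%, against 28.8%), and 1 had an unadjusted p under 0.05. The filter on dim genes left out Gbp5. With the replicate number as a block in the fit, the member median stayed at 0.10 and 0 genes were called. The block took the count at an unadjusted p of 0.05 in limma from 502 to 397. Deviations of same-numbered tumours correlated at -0.21, -0.063 and -0.097. These values gave no sign that the numbers pair the tumours, but so few cannot exclude it.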

Other observations

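The 4 members without a probe set of their own are named on 3 shared probe sets, whose signal cannot be assigned to a single gene. The probe set shared by Irgm2 and Igtp had log2 intensities of 5.76, 5.04 and 6.0 in vehicle tumours 1 to 3 and of 5.78, 6.12 and 5.49 in TMP195 tumours 1 to 3. The groups overlapped, and vehicle tumour 2 was the lowest and TMP195 tumour 2 the highest. The probe set shared by Gbp2 and Gbp2b was 7.58, 6.97 and 7.39 under vehicle and 7.17, 8.01 and 7.23 under TMP195, with the same tumours at its ends. Another, shared by Gbp6 with 5 other GBPs of its cluster, was 6.03, 5.64 and 6.38 under vehicle and 6.30, 6.12 and 5.85 under TMP195, lowest in vehicle tumour 2 and highest in vehicle tumour 3. The mean differences of these 3 probe sets were 0.19, 0.16 and 0.073. Shared probe sets of Tgtp1 and Tgtp2, which encode the effector GTPase Irgb6, gave 4.16 and 4.49 in vehicle tumour 2 and 5.70 and 5.90 in TMP195 tumour 2, the lowest and the highest of the 6 tumours on both. A probe set shared by Ifi47, another IRG, and Olfr56 was likewise lowest in vehicle tumour 2 (3.50) and highest in TMP195 tumour 2 (4.47). The 3 probe sets that name Gvin1, a very large interferon-inducible GTPase, together with related genes differed from these: they were lowest in TMP195 tumour 3, with mean differences of -0.18, -0.24 and -0.19 and overlapping groups.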
